A study of Mus musculus with 6 samples.

Results

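The unfolded protein response and chaperone genes described here are 31 genes of a table of 21448, matched by their symbols to a list of known members of these pathways. By compartment they fall into 23 genes of the endoplasmic reticulum (ER), 6 of the cytosol and 2 of the mitochondrion. Of the 31, 30 had a mean value of at least 1 over all libraries and were tested among 10533 genes. Hspa1a, the remaining member, lay below that level.

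RNA was sequenced from primary B cell lymphoma cells of E mu-Myc transgenic mice, whose Myc transgene is driven by an immunoglobulin heavy chain enhancer, in 3 libraries labelled PRDM15 KO and 3 labelled wild type. Both groups carry the transgene and were kept in medium with IL7. The labels' protocols give OHT at 50 nM or ethanol for 24 hours and collection at 3 days. PRDM15, the deleted gene, encodes a zinc finger protein with a PR domain. The library titles state only the group and a replicate number, and do not say which libraries had OHT. The sources used here do not give the age of the mice, the Cre driver, or whether equal numbers mark cells of the same mouse. Values are CPM-like scaled reads, meaning reads divided by an effective library size and not by gene length.

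The libraries held 28852951 to 41204788 reads on genes in the PRDM15 KO group and 38581112 to 47255421 in the wild type group. Prdm15 itself was at 40.2, 40.9 and 39.2 in PRDM15 KO replicates 1, 2 and 3 and at 29.2, 47.3 and 41.3 in the wild type replicates, so its whole-gene level does not check the labels. Of 8 B cell markers, all tested, 0 passed, with 4 above 0 and 4 below, and they summed to 1625 to 1690.2 in PRDM15 KO and 1548 to 1819.8 in wild type. Cd79b was at 446 to 519 in PRDM15 KO and 389 to 517 in wild type, Ms4a1, which encodes CD20, was at 6.04 or less, and Cd22 had the lowest log2 change, -1.15 (paired adjusted p = 0.0713). Of the plasma cell markers, Mzb1 was at 303 to 556 in PRDM15 KO and 383 to 462 in wild type and Slamf7 at 159 to 204, against 148 to 272, whereas Tnfrsf17 was at 0.125 or less. Of 15 macrophage and granulocyte markers 11 were tested, and all 11 had a mean log2 change above 0 (0 passed). The 15 summed to 31.9, 1983 and 1079 in PRDM15 KO replicates 1, 2 and 3, against 50.9, 190.5 and 132.7 in the wild type replicates, led by Lyz2 and followed by Csf1r, while the granulocyte genes Mpo, Elane, S100a8 and S100a9 were at 0.627 or less. T cell markers, led by Lck and Thy1, summed to 18.7 to 74.6 in PRDM15 KO and 26.4 to 84.2 in wild type. Erythroid markers, led by Hbb-b1 and Klf1, summed to 1.65 or less and stromal markers, led by Col1a1 and Col1a2, to 2.86 or less.

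The unfolded protein response adjusts the folding capacity of the ER. Sensors in its membrane start it, namely the kinase and RNase IRE1, the kinase PERK and the transcription factor precursor ATF6, and IRE1 splices the messenger RNA of the transcription factor XBP1. Its targets are chaperones, disulfide isomerases and genes of ER-associated degradation. B cells that become antibody-secreting cells are known for a strong XBP1 programme. The cytosolic heat shock chaperones and the mitochondrial chaperonin answer to other stress pathways, mainly through the factor HSF1 in the cytosol.

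None of the 30 tested members passed in either direction, with a limma adjusted p of 0.9998 for each without the replicate number and of 0.137 or more with it. Over all genes, 0.00949% were called without the replicate number and 0.873% with it. edgeR's quasi-likelihood test on recovered reads also called 0 members, beside 0 and 0.370% of all genes, and DESeq2 called 1 without the replicate number and 5 with it, beside 1.04% and 7.01%. The median log2 change of the members, PRDM15 KO minus wild type, was 0.14 on the scale of log2(value + 1), beside -0.03 over all genes tested, and 22 of 30 members lay above 0, beside 43.0% of all genes. The members' median was 0.038 without PRDM15 KO replicate 2, with 16 of 30 above 0, and was 0.089, 0.082 and 0.23 without wild type replicates 1, 2 and 3. By compartment the median was 0.14 for the ER, 0.11 for the cytosol and 0.27 for the mitochondrion. The cytosolic median was 0.014 without wild type replicate 1, 0.036 without wild type replicate 2 and 0.051 without PRDM15 KO replicate 2, and the mitochondrial one lay between 0.22 and 0.31 without any single library. Leaving out 1 library moved the log2 change of 26 of the 30 members by over 1.5 times or across 0, the exceptions being Hyou1, Dnajb1, Hspd1 and Hspe1. A change near 0, such as that of Derl3 at -0.02, passes this limit easily. The same count was not made over all genes, so it does not set these members apart. In the libraries of replicate 1, 2 and 3 the members' median change was 0.06, 0.34 and -0.03, with 18, 24 and 12 of the 30 members above 0. In bulk RNA, fewer cells of a type and less RNA per cell cannot be told apart.

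**Figure D1:**
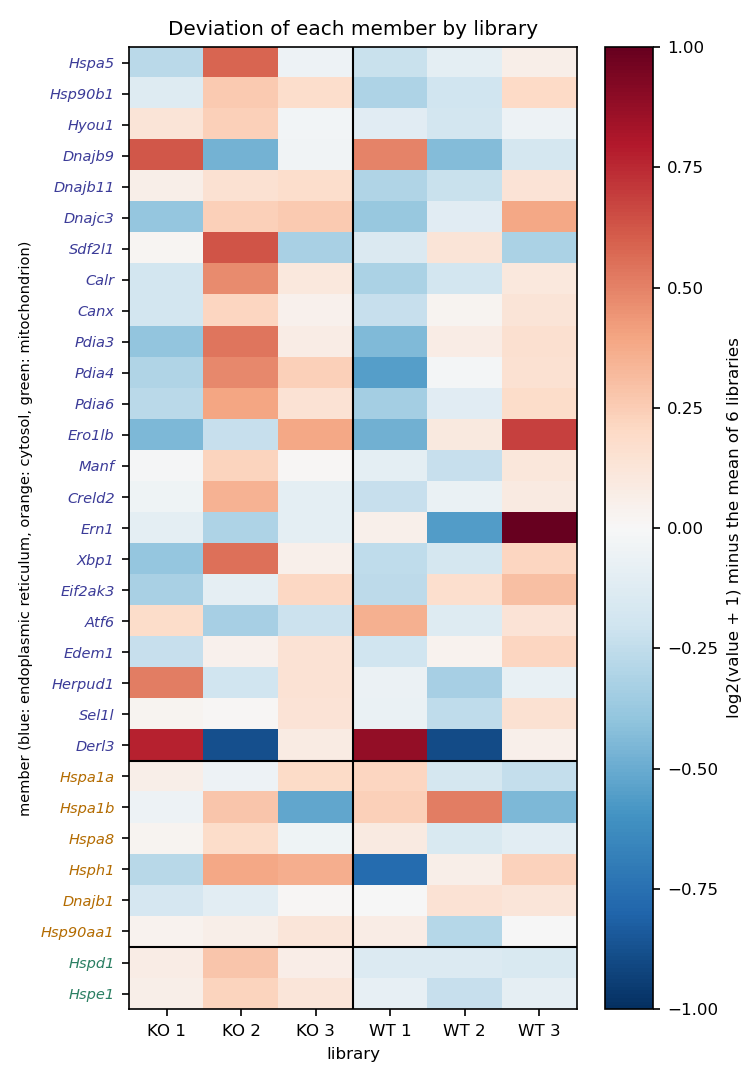
Deviation of each of the 31 members from its own mean over the 6 libraries, on the scale of log2(value + 1) (colour), by library (columns, PRDM15 KO left of wild type) and by compartment (rows). PRDM15 KO replicate 2 is the highest library for 16 of the 30 tested members, and Derl3 and Dnajb9 are high in replicate 1 of both groups.

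The groups overlapped for 27 of 30 members, and did not for 3, beside 9.50% of all genes. For Hspd1, Hspe1 and Hyou1 every PRDM15 KO library lay above every wild type library, which held for 3.21% of all genes tested, and for no member did they all lie below, which held for 6.29%. Of the 30 members, 8 were higher in PRDM15 KO in all 3 pairs of equal replicate number and 4 were lower, beside 16.7% and 29.9% of all genes. The 8 were Hyou1, Dnajb11, Calr, Pdia4, Herpud1, Hsph1, Hspd1 and Hspe1, and the 4 were Eif2ak3, Atf6, Hspa1b and Dnajb1. An unadjusted p under 0.05 was reached by 9 of 30 with the replicate number, beside 21.0% of all genes, and by 2, Hspd1 and Hspe1, without it, beside 4.06%.

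**Figure D2:**
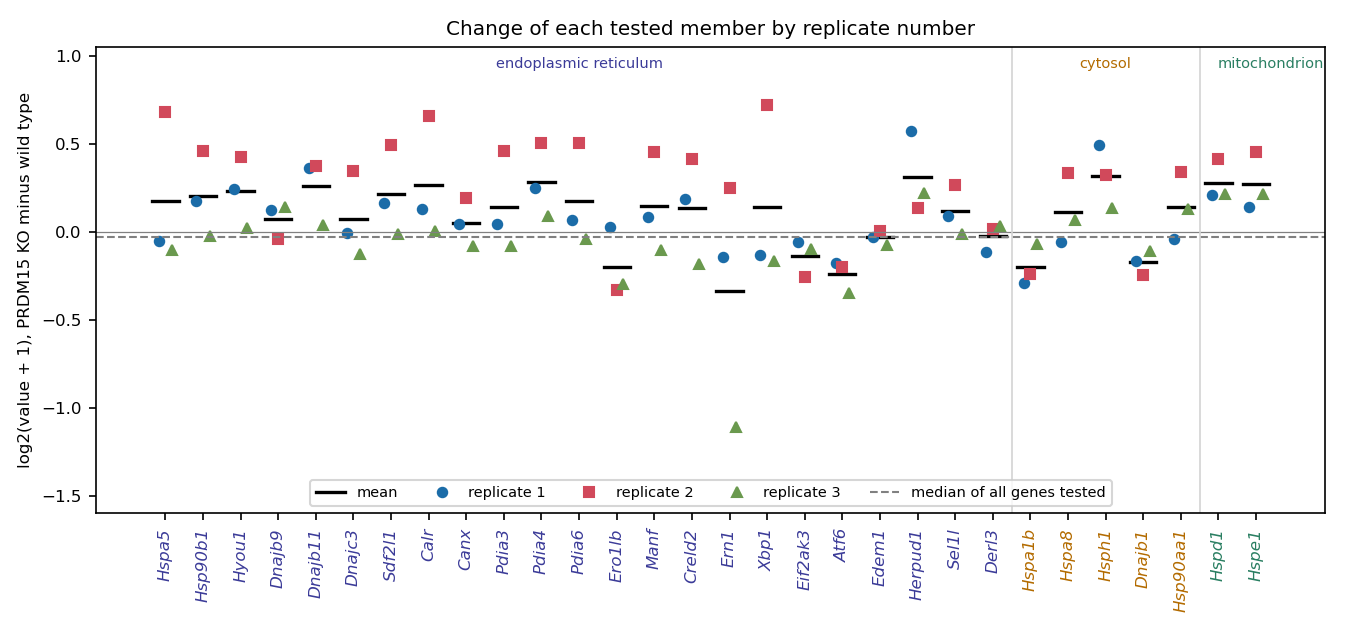
Log2 change of value plus 1, PRDM15 KO minus wild type (vertical axis), for the 30 tested members, with a symbol for each replicate number, a bar for the mean and a dashed line at the median of all genes tested, -0.03. Replicate 2 is the highest symbol for most ER folding genes, whereas Hspd1 and Hspe1 lie above 0 in each replicate number, at 0.21, 0.41 and 0.21 and at 0.14, 0.45 and 0.21.

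Both subunits of the mitochondrial chaperonin were higher in every PRDM15 KO library than in any wild type library. Hspd1, which encodes HSP60, the barrel in which imported proteins fold, was at 1299.6, 1494 and 1290.0 in PRDM15 KO replicates 1, 2 and 3 and at 1124, 1121 and 1112 in the wild type replicates. The wild type libraries differed by little, and each PRDM15 KO library lay above them. Its log2 change was 0.28 (95% interval 0.05 to 0.51, and 0.10 to 0.46 with the replicate number), with a limma adjusted p of 0.144 with the replicate number. The exact two-sided permutation p was 0.1, the smallest that 3 against 3 libraries allow.

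Hspe1, which encodes HSP10, the lid of that barrel, was at 245, 274 and 255 in PRDM15 KO replicates 1, 2 and 3, against 222, 199.9 and 220.02 in the wild type replicates. Again the groups did not overlap, and replicate 2 held both the highest PRDM15 KO and the lowest wild type value. Its log2 change was 0.27 (95% interval 0.07 to 0.47), with a limma adjusted p of 0.157 with the replicate number. Hspd1 was called by DESeq2 without the replicate number (adjusted p = 0.0313), and DESeq2 with the replicate number called Hspd1 (4.38e-05) and Hspe1 (0.00656). edgeR's quasi-likelihood test with the replicate number called neither (0.114 and 0.147). Leaving out any library or pair kept both genes above 0, with log2 changes between 0.21 and 0.32 for Hspd1 and between 0.18 and 0.33 for Hspe1.

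Hspd1 and Hspe1 lie head to head on mouse chromosome 1, and their exons share 112 bases in GENCODE M21, so reads there are told apart only by strand. The library kit was directional per the labels' protocols, but the sources used here do not state the strand setting of the counting. RefSeq promoter windows (250 bases before to 50 after a start, GRCm38.p6) numbered 2 for Hspd1 and 1 for Hspe1. The heat shock element, the binding motif of HSF1, was searched on both strands as GAA, TTC and GAA with 2 bases of any kind between neighbours. A run of these elements lay in 2 of the 3 windows, 1 for each gene, in a stretch that overlaps an exon annotated in GENCODE M21. It is shown because both genes share it, with the run in capitals, at chr1:55088055-55088080 on the minus strand, the strand of Hspd1.
Hspd1 and Hspe1: ggccTTCCGGAAGGTTCTAGAAcgga
The motif was in 0.603% of all 32851 promoter windows. Of the other members with a window, the exact motif was found in Hsph1 alone, at chr5:149636284-149636304 on the minus strand. Hspa8 and Hsp90aa1 had no window. Forms that depart from the exact motif, or lie outside the window, were not searched. Its absence from the other windows therefore does not show that those genes lack heat shock elements. In Hsph1 it lies 16 to 28 bases after one of its start sites.
Hsph1: cagaTTCTGGAAAGTTCtcct

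The other mitochondrial chaperones and proteases lay on both sides of 0. Of 17 tested genes, 0 passed, 9 lay above 0, beside 43.0% of all genes, and the median log2 change was 0.01. Lonp1, the matrix protease, was at 174, 174 and 189.8 in PRDM15 KO replicates 1, 2 and 3 and at 209.7, 221 and 211 in the wild type replicates, with every PRDM15 KO library lower (log2 change -0.25, paired adjusted p = 0.133, and 0.0483 by DESeq2 with the replicate number). Such full separation downward held for 1 of the 17 genes, beside 6.29% of all genes. Trap1, the mitochondrial HSP90, and Spg7, a subunit of an inner membrane protease, had log2 changes of -0.12 and -0.13, with overlapping groups.

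**Figure D3:**
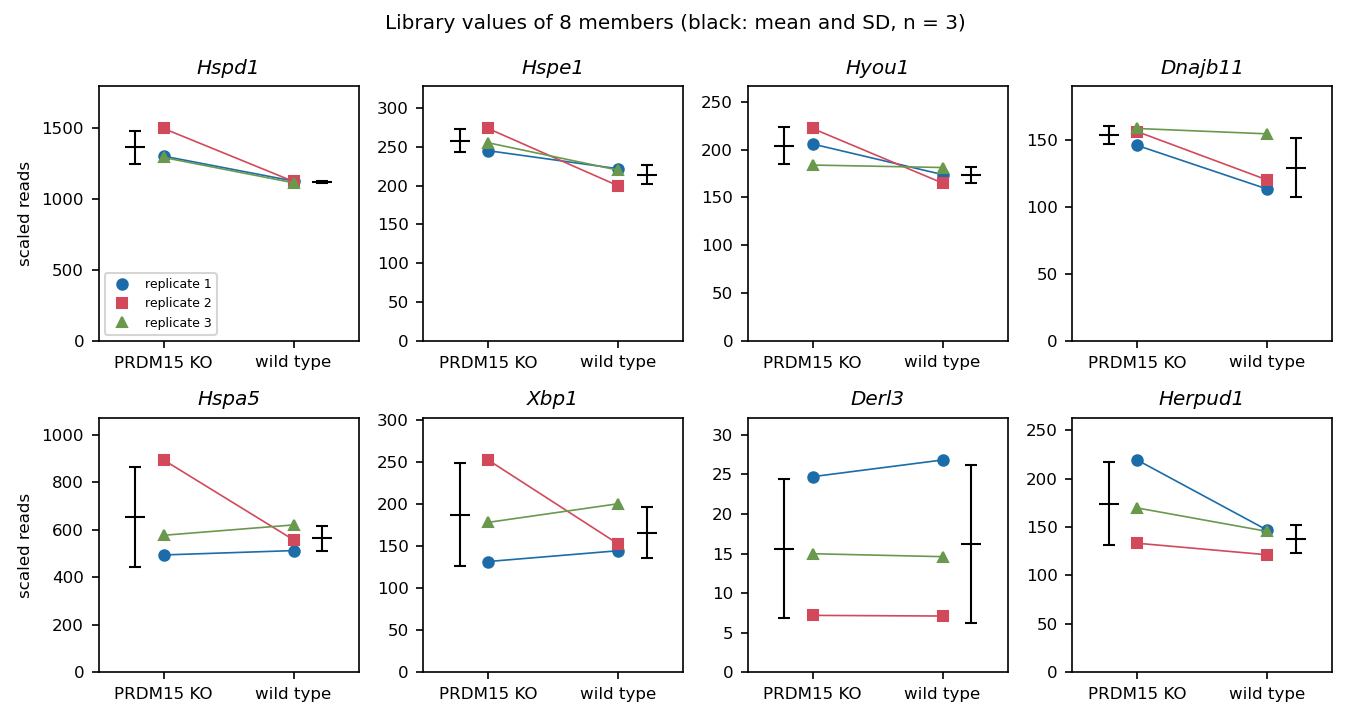
Values in scaled reads (vertical axes from 0) of 8 members in the PRDM15 KO and wild type libraries, with lines joining equal replicate numbers the bars showing mean and SD (n = 3 per group). Hspd1, Hspe1 and Hyou1 do not overlap between the groups, Hspa5 and Xbp1 are high in PRDM15 KO replicate 2, and Derl3 follows the replicate number.

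Among the 15 ER folding genes, PRDM15 KO replicate 2 was the highest library for 11 (73.3%, against 21.0% of all genes tested). The median log2 change of these genes was 0.13, 0.45 and -0.04 in replicates 1, 2 and 3, with 13, 13 and 5 of the 15 above 0. Their summed value was 4092, 5914 and 4928 in PRDM15 KO replicates 1, 2 and 3, against 3824, 4381 and 5099 in the wild type replicates. Without PRDM15 KO replicate 2 the median of all 23 ER members, 0.14 with it, was -0.00023, and it was 0.075, 0.088 and 0.24 without wild type replicates 1, 2 and 3. The macrophage and granulocyte markers were also highest in PRDM15 KO replicate 2. In replicate 3, where those markers summed to 1079 in PRDM15 KO and 132.7 in wild type, 5 of the 15 folding genes were higher in PRDM15 KO. The part of macrophages in this result was not tested.

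Hspa5, which encodes BiP, the ER's HSP70 and the protein that holds the sensors inactive, was at 494, 894 and 577 in PRDM15 KO replicates 1, 2 and 3, against 513, 558 and 621 in the wild type replicates. Only replicate 2 was higher in PRDM15 KO, by 0.68 on the log2 scale, and the groups overlapped. The mean log2 change was 0.17 (95% interval -0.38 to 0.72), and it was -0.07 without PRDM15 KO replicate 2. Hsp90b1, which encodes GRP94, the ER's HSP90, was at 753, 989 and 934, against 665, 718 and 948 in wild type (log2 change 0.21, interval -0.21 to 0.63). It was higher in PRDM15 KO in replicates 1 and 2 and about level in replicate 3.

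Hyou1, a large HSP70-like protein that exchanges nucleotide on BiP, was at 206, 222 and 184 in PRDM15 KO replicates 1, 2 and 3 and at 174, 165 and 181 in the wild type replicates. It was the ER member without overlap, though the lowest PRDM15 KO value was close to the highest wild type value. Its log2 change was 0.23 (95% interval -0.0032 to 0.46, and 0.01 to 0.45 with the replicate number, paired limma adjusted p = 0.228). Dnajb11, a cochaperone of BiP that binds unfolded chains, was at 146, 156 and 159 in PRDM15 KO, against 113.5, 120.3 and 155 in wild type (log2 change 0.26, paired adjusted p = 0.191). Replicates 1 and 2 differed between the groups, and wild type replicate 3 lay among the PRDM15 KO values.

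The other partners of BiP overlapped between the groups. Dnajb9, also called ERdj4, was at 28.6, 12.9 and 17.8 in PRDM15 KO replicates 1, 2 and 3 and at 26.1, 13.3 and 16.03 in the wild type replicates, so replicate 1 was highest in both groups. Dnajc3, or p58IPK, which inhibits the kinase PERK, ran the other way, at 103, 159.6 and 162 in PRDM15 KO and 104, 125 and 177 in wild type. Sdf2l1, part of the BiP chaperone complex, was at 62.6, 95.6 and 49.1 in PRDM15 KO, against 55.8, 67.5 and 49.4 in wild type, with replicate 2 highest in both groups. Their log2 changes were 0.07, 0.07 and 0.22, with paired adjusted p of 0.615, 0.714 and 0.309 by limma.

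The lectin chaperones hold newly made glycoproteins. Calr, calreticulin, was at 438, 691 and 537 in PRDM15 KO replicates 1, 2 and 3, against 401, 438 and 535 in the wild type replicates (log2 change 0.26, interval -0.21 to 0.73). It was higher in each pair, but in replicate 3 the values were nearly level. Canx, calnexin, its membrane-bound relative, was at 1085, 1438 and 1274 in PRDM15 KO and at 1054, 1258 and 1349 in wild type (log2 change 0.05, interval -0.31 to 0.41).

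The protein disulfide isomerases form and rearrange disulfide bonds. Pdia4 was at 181, 311 and 264 in PRDM15 KO replicates 1, 2 and 3, against 152, 219 and 248 in the wild type replicates, higher in each pair with a log2 change of 0.28. Its limma adjusted p with the replicate number was 0.184, and DESeq2 with the replicate number called it (0.0206). Pdia3, the partner of the lectin chaperones, and Pdia6 had log2 changes of 0.14 and 0.18, and both were slightly lower in PRDM15 KO in replicate 3, at 282 against 298 and at 293 against 302. Ero1lb, an oxidase that recharges these enzymes, was at 27.7, 32.4 and 50.2 in PRDM15 KO, against 27.1, 41.1 and 61.8 in wild type (log2 change -0.20, interval -1.04 to 0.64).

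Manf, a secreted factor made under ER stress, was at 101.9, 119.9 and 103 in PRDM15 KO replicates 1, 2 and 3, against 95.9, 87.4 and 111 in the wild type replicates. Creld2, another ER stress protein with disulfide isomerase activity, was at 43.1, 56.6 and 41.4, against 37.7, 42.3 and 47.2. Both were higher in PRDM15 KO in replicates 1 and 2 and lower in replicate 3, with mean log2 changes of 0.14 each.

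The ER stress response element (ERSE), the motif through which ATF6 and the CCAAT-binding factor NF-Y act, was searched on both strands as CCAAT and CCACG with 9 bases of any kind between them. RefSeq promoter windows were at hand for 26 of the 31 members, 20 of them ER genes. The exact motif was in 9 of the 20 ER windows, in 0 of the 9 windows of cytosolic and mitochondrial members, and in 0.119% of all windows. The elements are shown because these 9 genes share the motif. Capitals mark the element, read in its own direction, with 4 bases on each side, and each line's strand is that of the sequence printed (GRCm38.p6).
Hspa5, chr2:34772021-34772047, plus strand: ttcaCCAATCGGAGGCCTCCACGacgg
Hsp90b1, chr10:86705634-86705660, minus strand: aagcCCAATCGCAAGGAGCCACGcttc
Hsp90b1, chr10:86705529-86705555, plus strand: ctcaCCAATCGTGCCTCACCACGcact
Calr, chr8:84847071-84847097, plus strand: tgggCCAATGAGGGTCGACCACGcgtt
Canx, chr11:50325796-50325822, minus strand: ttgaCCAATCACCACGCTCCACGaaga
Pdia6, chr12:17266487-17266513, plus strand: gagaCCAATGAAAGGCGGCCACGgcgt
Ero1lb, chr13:12565678-12565704, minus strand: gcggCCAATGAGGCGGGACCACGaggc
Dnajc3, chr14:118937823-118937849, plus strand: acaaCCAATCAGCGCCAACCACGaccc
Creld2, chr15:88819516-88819542, minus strand: tggaCCAATTGAGGCTCGCCACGagaa
Derl3, chr10:75893238-75893264, minus strand: ctagCCAATGGGGAAGTCCCACGgtag
The 9 genes did not share a single direction, with 7 above 0 and 2 below, beside 43.0% of all genes above 0. Their median log2 change was 0.14. The 11 ER genes whose window held no exact ERSE also had a median of 0.14, with 8 above 0 and 3 below. Those 11 include Herpud1 and Dnajb11, which hold the shorter form described next. The 9 genes together with Herpud1 and Dnajb11 had a median of 0.17, with 9 above 0 and 2 below. In replicates 1, 2 and 3 the 9 genes had medians of 0.04, 0.41 and -0.08, and 6, 8 and 2 of them lay above 0. The element of Hspa5 lies in an exon annotated in GENCODE M21, unlike those of the other 8 genes.

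A shorter form, ERSE-II, searched on both strands as ATTGG and CCACG with 1 base of any kind between them, was in the windows of Herpud1 and Dnajb11 and in 0.0365% of all windows. It lies 52 to 42 bases before the start of Herpud1, at chr8:94386373-94386391, and 8 to 18 bases after the start of Dnajb11, at chr16:22857848-22857866, both on the plus strand.
Herpud1: gctgATTGGGCCACGttgg
Dnajb11: ggcgATTGGCCCACGcctg
The motif TGACGTGG, the core of the XBP1-bound UPR element, was in 0 of the members' windows and in 0.676% of all windows. A CCAAT box was in 18 of the 20 ER windows and in 37.4% of all, a count that holds the boxes inside the ERSEs.

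Of the 4 sensors and transcription factors, 3 lay below 0 and 1 above, beside 43.0% of all genes above 0. Their median log2 change was -0.19. Xbp1 was at 132, 253 and 178 in PRDM15 KO replicates 1, 2 and 3, against 145, 153 and 200.5 in the wild type replicates, higher in PRDM15 KO in replicate 2 by 0.72 on the log2 scale and lower in replicates 1 and 3. Its mean log2 change of 0.14 (95% interval -0.48 to 0.76) was -0.10 without PRDM15 KO replicate 2. Total Xbp1 reads do not show how much of the messenger RNA was spliced. Ern1, which encodes IRE1, was at 10.3, 8.78 and 10.3 in PRDM15 KO, against 11.5, 7.22 and 23.3 in wild type. The log2 change of -0.33 (interval -1.28 to 0.62) rested on wild type replicate 3, without which it was 0.09.

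Eif2ak3, which encodes PERK, was at 43.7, 51.5 and 63.4 in PRDM15 KO replicates 1, 2 and 3 and at 45.6, 61.6 and 67.8 in the wild type replicates. Atf6 was at 119, 83.3 and 90.3 in PRDM15 KO, against 135, 96.0 and 115 in wild type. Both were lower in PRDM15 KO in each pair, while the groups overlapped. The log2 changes were -0.14 for Eif2ak3 and -0.24 for Atf6, whose interval was -0.69 to 0.20 without the replicate number and -0.39 to -0.09 with it. The paired limma adjusted p of Atf6, 0.137, was the lowest among the members.

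ER-associated degradation pulls misfolded proteins back to the cytosol. Of its 4 members 2 lay above and 2 below 0, beside 43.0% of all genes above 0. Herpud1, a membrane protein of the degradation complex, was at 219, 133 and 169.7 in PRDM15 KO replicates 1, 2 and 3, against 147, 121 and 146 in the wild type replicates. It was higher in PRDM15 KO in each pair, by 0.57, 0.13 and 0.22 on the log2 scale in replicates 1, 2 and 3. Herpud1 had a log2 change of 0.31 (interval -0.16 to 0.78, and 0.07 to 0.55 with the replicate number, paired limma adjusted p = 0.181). Its change was 0.13 without PRDM15 KO replicate 1 and 0.49 without PRDM15 KO replicate 2. DESeq2 with the replicate number called Herpud1 (0.0484).

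Derl3, a derlin of the retrotranslocation channel, was at 24.7, 7.201 and 14.99 in PRDM15 KO replicates 1, 2 and 3 and at 26.8, 7.12 and 14.6 in the wild type replicates. The libraries of equal number lay close together, and the highest library was 3.77 times the lowest. Its log2 change was -0.02, with an interval of -1.42 to 1.38 without the replicate number and of -0.23 to 0.19 with it. Sel1l, the adaptor of the ubiquitin ligase, and Edem1, a lectin that hands over glycoproteins for disposal, had log2 changes of 0.12 and -0.03. Sel1l was at 105.6, 104.7 and 114 in PRDM15 KO, against 99.0, 86.8 and 115 in wild type, and Edem1 at 91.0, 109.9 and 118, against 92.9, 109.4 and 124.

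The upstream stretches of Derl3 and Herpud1, both of which were highest in replicate 1 in their group, are shown in full, 250 bases up to the RefSeq start (GRCm38.p6, plus strand, the strand of both genes). Of the 11 ER genes with an ERSE or ERSE-II, only these 2 had replicate 1 highest in both groups, and 8 had it lowest in both. Over all genes tested the counts were 2084 and 4164 of 10533. For Herpud1 the wild type values of replicates 1 and 3 were nearly level, at 146.9 and 145.5. Dnajb9, also highest in replicate 1 of both groups, had neither element in its window. Capitals mark the ERSE of Derl3, here in reverse complement, and the ERSE-II of Herpud1.
Derl3, chr10:75893148-75893397: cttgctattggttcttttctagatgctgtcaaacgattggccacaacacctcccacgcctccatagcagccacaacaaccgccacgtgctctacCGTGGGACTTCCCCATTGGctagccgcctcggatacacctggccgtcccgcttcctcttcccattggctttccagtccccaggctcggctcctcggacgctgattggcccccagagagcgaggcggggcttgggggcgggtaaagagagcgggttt
Herpud1, chr8:94386179-94386428: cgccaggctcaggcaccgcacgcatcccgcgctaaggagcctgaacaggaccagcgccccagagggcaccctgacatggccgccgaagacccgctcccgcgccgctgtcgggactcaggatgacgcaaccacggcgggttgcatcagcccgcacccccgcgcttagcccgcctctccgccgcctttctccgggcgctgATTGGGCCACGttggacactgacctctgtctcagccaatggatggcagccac

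Replicate number 1 was the lowest of its group in both groups for 15 of the 30 members, 10 of them ER folding genes, and the highest in both groups for 4, namely Dnajb9, Atf6, Herpud1 and Derl3. Over all genes tested the counts were 4164 and 2084 of 10533.

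The groups overlapped for each of the 6 cytosolic members. Hspa8, the constitutive HSP70, was at 4239.9, 4707 and 4036 in PRDM15 KO replicates 1, 2 and 3, against 4421, 3740 and 3851 in the wild type replicates (log2 change 0.11, interval -0.20 to 0.42). Hsp90aa1, the inducible HSP90, was at 2607, 2650.0 and 2776, against 2683, 2091 and 2541 in wild type (log2 change 0.14, interval -0.17 to 0.45). Both were lower in PRDM15 KO in replicate 1 and higher in replicates 2 and 3. Both have processed pseudogene copies, and the sources used here do not say how reads shared with such copies were counted.

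Hsph1, an HSP110 that exchanges nucleotide on HSP70, was at 166, 264 and 259 in PRDM15 KO replicates 1, 2 and 3, against 118, 210.3 and 236 in the wild type replicates. It was higher in each pair, and replicate 1 was lowest in both groups. Its log2 change was 0.32 (95% interval -0.44 to 1.07, and 0.12 to 0.52 with the replicate number), and it was 0.014 without wild type replicate 1 and 0.53 without PRDM15 KO replicate 1. The paired limma adjusted p was 0.141, and DESeq2 with the replicate number called it (0.00709). Dnajb1, the HSP40 that feeds clients to HSP70, was lower in each pair, at 47.2, 49.5 and 53.7 in PRDM15 KO, against 53.0, 58.8 and 58.1 in wild type (log2 change -0.17, interval -0.40 to 0.06).

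The stress-inducible HSP70 genes had few reads. Hspa1b was at 5.75, 7.48 and 3.89 in PRDM15 KO replicates 1, 2 and 3, against 7.27, 9.02 and 4.13 in the wild type replicates (log2 change -0.20, interval -1.01 to 0.61). Hspa1a was at 0.732, 0.602 and 0.901 in PRDM15 KO, against 0.935, 0.476 and 0.407 in wild type, with 19 to 38 reads per library. Of the 50-base windows of the Hspa1b transcript, 62.3% also occur in that of Hspa1a, so the split of reads between the pair is uncertain.

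**Figure D4:**
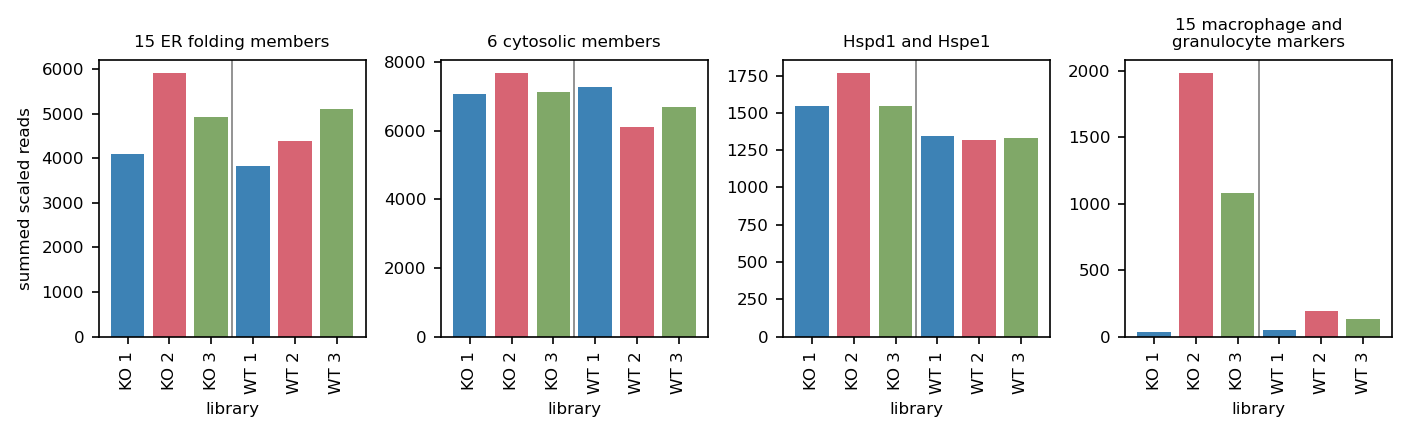
Summed scaled reads (vertical axes from 0) of the 15 ER folding members, the 6 cytosolic members, Hspd1 with Hspe1, and the 15 macrophage and granulocyte markers in each library (KO, PRDM15 KO; WT, wild type; colours mark the replicate number). The mitochondrial sum is 1545, 1768 and 1545 in PRDM15 KO and 1346, 1321 and 1332 in wild type, while the ER folding sum and the markers are both highest in PRDM15 KO replicate 2.

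Levels were compared between members only per kilobase of exon, with exon lengths from GENCODE M21. On that scale Hspa8 was highest, at 1006 ± 80.0 in PRDM15 KO and 930.9 ± 84.98 in wild type (SD, n = 3 each), followed by Hsp90aa1 at 681 ± 22.3 and 620.3 ± 78.6 and Hspd1 at 515 ± 43.5 and 424 ± 2.41. Among ER members Canx was highest, at 269.7 ± 37.6 in PRDM15 KO and 260.1 ± 32.2 in wild type. The sensors were much lower, with Atf6 at 10.6 ± 2.07 and 12.5 ± 2.11, Eif2ak3 at 8.78 ± 1.65 and 9.69 ± 1.91, and Ern1 at 1.197 ± 0.107 and 1.71 ± 1.02. Hspa5 lay at the 97.2 percentile of all genes tested and Ern1 at the 16.3.

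**Figure D5:**
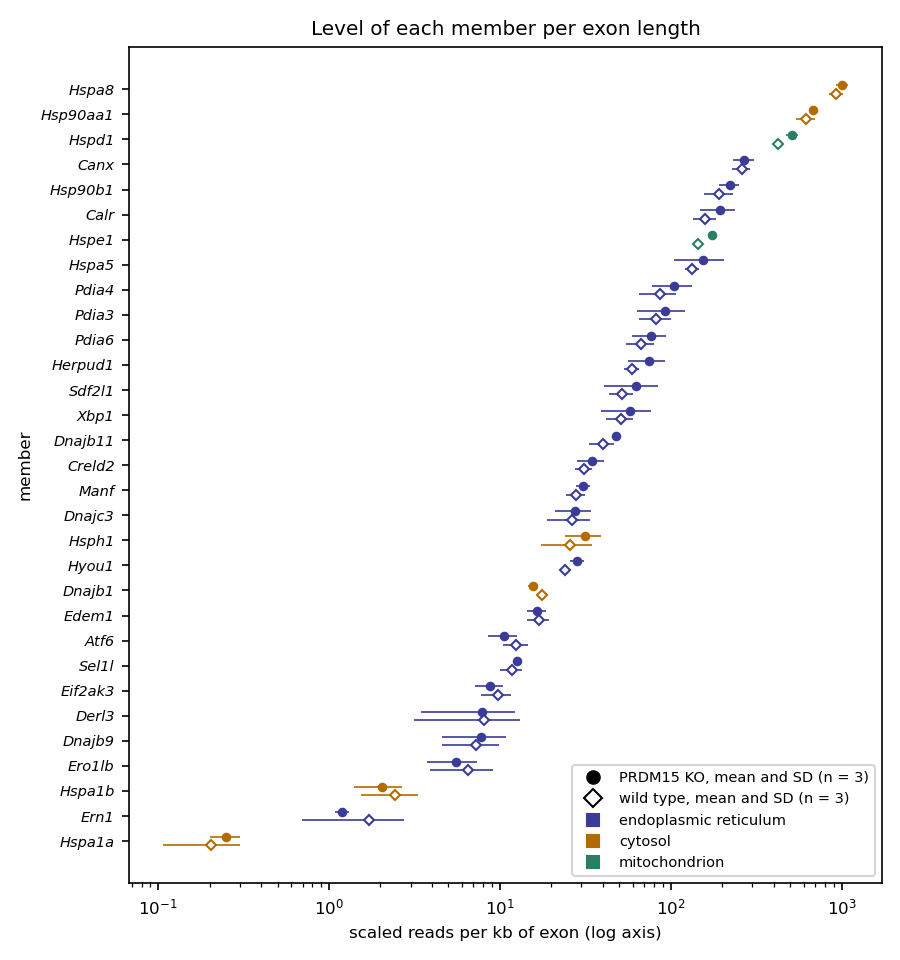
Mean level of each member in scaled reads per kilobase of exon (horizontal log axis, bars SD, n = 3 per group), in PRDM15 KO (filled) and wild type (open), coloured by compartment. Hspa8, Hsp90aa1 and Hspd1 are highest, and Hspa1b, Ern1 and Hspa1a are lowest.

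Further genes of the same pathways were read from 6 wider lists with 138 tested genes, of which 0 passed in either direction with or without the replicate number, while 7 had an unadjusted p under 0.05 without it, beside 4.06% of all genes, and 28 (20.3%) with it, beside 21.0%. Their median log2 change was -0.02, with 63 above 0 and 75 below, beside 43.0% of all genes above 0. Other cytosolic chaperones had a median of 0.05, with 22 of 32 above 0, beside 43.0% of all genes, and 11 higher and 2 lower in every pair, beside 16.7% and 29.9%. In 6 of them, Hspa4, Hspa14, Ahsa1, Ptges3, Hspbp1 and Cct8, all PRDM15 KO libraries lay above all wild type ones, beside 3.21% of all genes.

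Ptges3, the HSP90 cochaperone p23, was at 467, 502 and 429 in PRDM15 KO replicates 1, 2 and 3, against 379.9, 377 and 375 in the wild type replicates (log2 change 0.30, paired adjusted p = 0.115). Hspa4, another HSP110, was at 721, 798 and 704, against 577, 642 and 655 in wild type (0.25, paired adjusted p = 0.156). Chordc1, an HSP90 cochaperone, had a log2 change of 0.30 with overlapping groups (paired adjusted p = 0.0852). DESeq2 with the replicate number called all of these, with adjusted p of 3.41e-05 for Ptges3, 0.00326 for Hspa4 and 1.88e-05 for Chordc1. These 3 genes were named for their small unpaired p, and that DESeq2 fit called 7.01% of all genes.

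Other ER folding and glycoprotein genes had a median log2 change of -0.08, with 5 of 19 above 0, beside 43.0% of all genes, and 0 higher and 9 lower in every pair, beside 16.7% and 29.9%. Ero1l, the other ER oxidase, was at 72.5, 56.4 and 74.8 in PRDM15 KO replicates 1, 2 and 3, against 155, 93.1 and 100.2 in the wild type replicates, so every PRDM15 KO library was lower. Its log2 change was -0.74 (limma paired adjusted p = 0.0852, and 2.22e-05 by DESeq2 with the replicate number), beside -0.20 for the member Ero1lb. Such full separation downward held for 1 of the 19 genes, beside 6.29% of all genes. P4hb, the founding disulfide isomerase, had a log2 change of -0.33 (0.0448 by DESeq2 with the replicate number) and Dnajc10, an ER reductase, of -0.21, with overlapping groups for both.

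Other genes of ER-associated degradation divided evenly, with 9 above and 9 below 0, beside 43.0% of all genes above 0. In 3 of the 18 tested genes every PRDM15 KO library lay below every wild type library, beside 6.29% of all genes. In 1, Vcp, every PRDM15 KO library lay above, beside 3.21%. Syvn1, the ubiquitin ligase that works with Sel1l, was at 55.8, 46.8 and 45.9 in PRDM15 KO replicates 1, 2 and 3, against 63.5, 64.6 and 57.3 in the wild type replicates (log2 change -0.32, paired adjusted p = 0.130). Erlec1, an ER lectin, was also lower in every PRDM15 KO library (-0.38, paired adjusted p = 0.119). Vcp, the ATPase that extracts ubiquitinated proteins, was at 458, 618 and 510.02, against 403, 435 and 448 in wild type (0.29, paired adjusted p = 0.162, and 0.00344 by DESeq2 with the replicate number).

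Other sensors and effectors had a median log2 change of -0.02. Ddit3, which encodes the death-linked factor CHOP, was low in all libraries, at 3.36, 4.59 and 4.53 in PRDM15 KO replicates 1, 2 and 3, against 5.13, 4.76 and 5.01 in the wild type replicates (log2 change -0.22, paired adjusted p = 0.422). Ppp1r15b, a phosphatase subunit that acts on eIF2 alpha, had a log2 change of -0.15, and Bcl2l11, which encodes the death factor BIM, had 0.16. For Ddit3 and Ppp1r15b, 2 of the 20 tested genes, every PRDM15 KO library lay below every wild type library, beside 6.29% of all genes. Genes of ER translocation and secretion had a median of -0.07, with 10 of 32 above 0, beside 43.0% of all genes. Below 0 were, among others, the channel subunits Sec61g (-0.28) and Sec61b (-0.14) and the signal peptidase subunit Spcs3 (-0.13).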

How the data were processed

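The authors deposited a table of RNA-seq signal per gene and library. The table's name says FPKM, but within each library every value was a whole multiple of the same step (tolerance 0.01 reads, 100% of values whole), so the deposited signal is reads divided by an effective library size. Per the submitters' processing notes the build was mm9 and the tools were STAR 2.4.2a, CASAVA, edgeR and HTSeq, with no role or order stated.

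Genes with a mean of at least 1 were tested on log2(value + 1) with limma 3.58.1 in R 4.3.3, with a trended prior variance, two-sided, with Benjamini-Hochberg adjustment over 10533 genes and a threshold of 0.05. "Paired" means with the replicate number as a block. Libraries of equal number deviated together from their group's mean (correlations of 0.73, 0.73 and 0.84), so the numbers were taken to pair them, from the data and not from the labels. edgeR 4.0.16 and DESeq2 1.42.0 were run on the recovered reads. The p-values cover the spread of these samples, called biological replicates in the series text. Intervals are limma's 95% intervals, without the replicate number unless stated.

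The members and lists were chosen with earlier results of these data known. All 31 members are named. Of each wider list the genes that passed, or otherwise the 3 with the smallest unpaired p, are named, and of each marker list those with the highest means, apart from 1 B cell marker that is not reported here. The non-overlapping cytosolic genes, Ms4a1, Cd22 and Tnfrsf17 were named after their values were seen. Of 201 list entries 7 matched no gene. Sequences are from RefSeq (GRCm38.p6). Coordinates of mm9 were not used here.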

Additional observations from a re-analysis of the deposited data

How the results depend on the processing

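Without the replicate block limma called 1 gene and no member, and with it 92 genes and 0 members. Genes called numbered 0 with a pseudocount of 0.25, with a pseudocount of 4, with no filter on low values, with quantile normalization and with edgeR, 39 with edgeR and the block, 110 with DESeq2, and 738 with DESeq2 and the block. Members called numbered 1 with DESeq2 and 5 with DESeq2 and the block. Leaving out a library or a pair gave 0 to 840 genes and 0 to 1 members (Hspe1 with the block and without pair 1, adjusted p = 0.0465). With PRDM15 KO replicates 2 and 3 both left out, which leaves 1 PRDM15 KO library assumed to vary like the wild type ones, 0 genes were called and the cytosolic median was -0.12, and neither bears on stability. Over the 19 alternatives with at least 2 libraries per group (570 values of 30 members), 530 kept direction and call, 33 changed sign and 7 became calls, and 16 members kept their sign throughout. The causes were not tested.

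Sign changes were as follows. With equal totals Edem1 was 0.023 and Derl3 0.031. With the block Derl3 was 0.0025 by edgeR and 0.0018 by DESeq2. With PRDM15 KO replicates 2 and 3 left out, Hspa5 was -0.18, Hsp90b1 -0.029, Dnajc3 -0.35, Calr -0.054, Canx -0.16, Pdia3 -0.33, Pdia4 -0.16, Pdia6 -0.18, Xbp1 -0.32, Atf6 0.062, Derl3 0.76 and Hsph1 -0.12. Leaving out single libraries gave -0.073 to 0.35 for Hspa5, -0.22 to 0.34 for Dnajb9, -0.10 to 0.28 for Dnajc3, -0.043 to 0.43 for Sdf2l1, -0.051 to 0.16 for Canx, -0.090 to 0.37 for Pdia3, -0.49 to 0.090 for Ero1lb, -0.00023 to 0.22 for Creld2, -0.70 to 0.086 for Ern1, -0.099 to 0.37 for Xbp1, -0.14 to 0.075 for Edem1, -0.48 to 0.41 for Derl3 and -0.48 to 0.0093 for Hspa1b. With the block, Derl3 was 0.024 without pair 1, Ern1 was 0.053 without pair 3, and without pair 2 Hspa5 was -0.079, Dnajc3 -0.067, Canx -0.020, Pdia3 -0.019, Manf -0.0095 and Xbp1 -0.15. Without PRDM15 KO replicate 2 the ER median was -0.00023, and without pair 2 it was -0.0095. Equal totals moved the median of all genes to 0.02, and the members' median was then 0.195. Hspa1a, with 19 to 38 reads per library, could not be resolved at this depth.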
